A study of Homo sapiens with 6 samples.

Results

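The genes described here build and move the actin cytoskeleton: the actins, the proteins that nucleate, cap, sever and crosslink actin filaments, the tropomyosins, calponins and transgelins that bind along them, the myosin motors with their light chains, and the proteins that tie filaments to the membrane. They were chosen by symbol, by a rule that uses no measured value but was drawn up with earlier results of these data known. Of 25287 genes in the authors' deposited table, 94 matched the chosen symbols, 9 of these were annotated pseudogenes and were left out, and 85 remained. RNA came from NCI-H1299, a long-established line of human lung tumour cells that the labels call lung adenocarcinoma, in 2 groups of 3 libraries. The shControl group carried a control short hairpin RNA and the shALDH18A1 group a hairpin against ALDH18A1, whose product P5CS starts proline synthesis from glutamate. All 6 libraries came from the same cell line, and no other treatment, allele or time point is labelled. Nothing in the labels ties the 3 libraries of a group to separate cultures, and the p-values may thus cover technical spread alone.

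Actin monomers polymerise into filaments, and the Arp complex and the formins start new filaments while profilin, cofilin and capping protein control their growth and turnover. Filamins, alpha-actinins and fascin join filaments into networks and bundles. Tropomyosin decides in part which partners reach a filament, and myosin II, switched on by phosphorylation of its regulatory light chain, pulls filaments against each other and gives a cell tension. Calponin 1, transgelin and smooth muscle myosin are known as markers of contractile smooth muscle, and many genes of this system are known targets of serum response factor (SRF), whose coactivators sense free actin monomers.

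Each gene was taken from 1 row of the authors' deposited table, with its mean normalized count over the libraries, its log2 fold change and the standard error of that change (SE). Of 25289 rows, repeats of a symbol were dropped, which left 25287 genes. Single libraries were not analysed here and their depths are unknown. The headers do not say which group is the numerator of the fold change, and ALDH18A1 itself stood at -0.08 (SE 0.07, adjusted p = 0.471) by the authors' deposited table, which leaves the direction unmarked. A negative value therefore means less RNA in the numerator group, and no hairpin is assigned to it. With an interval from -0.22 to 0.07 at a mean of 2661, ALDH18A1 shows no loss of RNA in either group here. The differences below are thus between the hairpin groups as labelled, and how far the target was lowered was not tested. Passing means an adjusted p under 0.05 in the authors' deposited table. It is not the authors' own call, which reaches an adjusted p of 0.106 and was not used. Bulk RNA cannot separate fewer cells of a type from less RNA per cell. As for the labelled cell type, the epithelial keratin genes KRT8 and KRT18 had mean counts of 18965 and 14244 in the authors' deposited table, while CDH1 and EPCAM were at 24.2 and 41.4. Both keratins passed on the positive side, KRT8 at 0.32 (SE 0.06) and KRT18 at 0.61 (SE 0.06), by the authors' deposited table. The mesenchymal filament gene VIM, named after its value was seen, had a mean of 24591 and stood at -0.48 (SE 0.06, adjusted p = 3.9e-15) by the authors' deposited table. The part of these marker changes in the members' values was not tested. Of 4 lung lineage genes 1 was listed, the surfactant gene SFTPB, at 4.49 in the authors' deposited table.

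The 250 bases before an annotated start are shown for 7 members because they carry either the largest change of the set (CNN1) or, among members that passed, a match to the CArG box, the motif that SRF binds. Capitals mark the CArG box, on the strand of the gene. Sequences and coordinates are RefSeq's on GRCh38.p14.
CNN1, chr19:11538601-11538850, strand plus: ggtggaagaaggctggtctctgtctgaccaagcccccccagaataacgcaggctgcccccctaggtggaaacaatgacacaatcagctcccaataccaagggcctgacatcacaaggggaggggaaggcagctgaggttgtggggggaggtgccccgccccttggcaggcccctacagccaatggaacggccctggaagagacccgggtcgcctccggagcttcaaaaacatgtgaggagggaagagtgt
MYO1E, chr15:59372872-59373121, strand minus: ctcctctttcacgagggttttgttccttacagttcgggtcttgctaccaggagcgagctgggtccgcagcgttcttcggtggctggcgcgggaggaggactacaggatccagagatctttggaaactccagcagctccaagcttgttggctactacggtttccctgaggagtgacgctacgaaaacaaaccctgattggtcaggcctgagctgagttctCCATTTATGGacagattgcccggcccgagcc
MYLK, chr3:123620549-123620798, strand minus: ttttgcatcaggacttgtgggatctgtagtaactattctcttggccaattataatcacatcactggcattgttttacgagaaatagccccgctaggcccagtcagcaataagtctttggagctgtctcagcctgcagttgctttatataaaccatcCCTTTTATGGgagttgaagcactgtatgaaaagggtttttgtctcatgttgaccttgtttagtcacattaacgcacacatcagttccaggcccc
TPM4, chr19:16067288-16067537, strand plus: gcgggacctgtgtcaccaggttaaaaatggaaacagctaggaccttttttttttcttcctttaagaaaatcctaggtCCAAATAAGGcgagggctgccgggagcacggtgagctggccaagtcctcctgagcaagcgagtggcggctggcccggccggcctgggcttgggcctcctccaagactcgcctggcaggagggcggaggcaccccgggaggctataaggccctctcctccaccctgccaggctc
ACTG1, chr17:81512800-81513049, strand minus: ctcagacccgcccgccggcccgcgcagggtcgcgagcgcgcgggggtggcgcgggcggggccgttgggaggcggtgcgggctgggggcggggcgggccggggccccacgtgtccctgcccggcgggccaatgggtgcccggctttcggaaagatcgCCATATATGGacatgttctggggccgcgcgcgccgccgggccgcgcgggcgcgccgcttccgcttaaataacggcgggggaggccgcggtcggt
CNN2, chr19:1026358-1026607, strand plus: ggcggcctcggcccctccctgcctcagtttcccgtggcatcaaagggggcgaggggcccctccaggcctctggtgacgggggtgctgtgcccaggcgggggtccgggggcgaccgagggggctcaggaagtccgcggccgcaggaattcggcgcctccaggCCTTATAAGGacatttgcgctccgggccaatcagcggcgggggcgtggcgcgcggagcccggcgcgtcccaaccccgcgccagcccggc
FLNA, chrX:154374635-154374884, strand minus: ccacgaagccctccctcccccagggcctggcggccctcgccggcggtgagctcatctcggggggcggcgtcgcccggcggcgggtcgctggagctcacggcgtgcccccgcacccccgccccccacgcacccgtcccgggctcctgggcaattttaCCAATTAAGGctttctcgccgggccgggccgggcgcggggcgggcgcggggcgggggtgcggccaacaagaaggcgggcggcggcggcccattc
The CArG box lay 94 bases before the start in ACTG1 and FLNA, 89 in CNN2, 31 in MYO1E and 173 in TPM4. In MYLK it also lay 94 bases before the start. Each window belongs to 1 RefSeq start, and these starts lie inside the GENCODE extents of the genes, furthest in MYLK, ACTG1 and TPM4. The MYLK window ends at 123620798 on the minus strand, while the gene reaches back to 123884331. It is thus not the window of the outermost MYLK start. A count per gene cannot separate transcripts of different starts, so this CArG box is not tied to the MYLK fold change. No CArG box is present in the CNN1 window. Windows were available for 71 of the 85 members, and 9 of these (12.7%) held a CArG box, against 1.44% of 27305 genes with a window. The members holding it went both ways: 4 passed on the negative side, 2 on the positive side, and ACTA1, ACTG2 and ACTN1 did not pass. The MCAT element CATTCC, bound by TEAD factors and searched on both strands, stood in 14 of the 71 members (19.7%) and in 14.3% of all genes with a window. A match describes the letters of these windows and shows no binding.

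Most members that passed had less RNA in the numerator group. Of the 85 members, 41 passed on the negative side (48.2%) and 14 positive (16.5%) by the authors' deposited table, and 30 did not pass. Of all 25287 genes, 42.4% passed, 21.5% negative and 20.9% positive. Members are more abundant than most genes, so genes whose mean reaches 100 are the nearer background. There, 38 of 57 members were negative (66.7%) and 12 positive (21.1%) by the authors' deposited table. Of 11544 such genes 74.1% passed, 39.9% negative and 34.1% positive. The median log2 fold change of the 85 members was -0.45 in the authors' deposited table, and that of all genes was 0.03. Among members that passed, 15 had a log2 fold change of -1 or lower and 6 of 1 or higher in the authors' deposited table. By the same double rule 7.06% and 10.9% of all genes were called, and 9.45% and 13.6% of those whose mean reaches 100. With fold changes shifted by 0.13 to give the groups equal total counts, 44 members were negative and 12 positive. That shift lowers the fold change of every gene, and the share of all genes under it is not given here. These counts are therefore not comparable with the shares above.

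**Figure D1:**
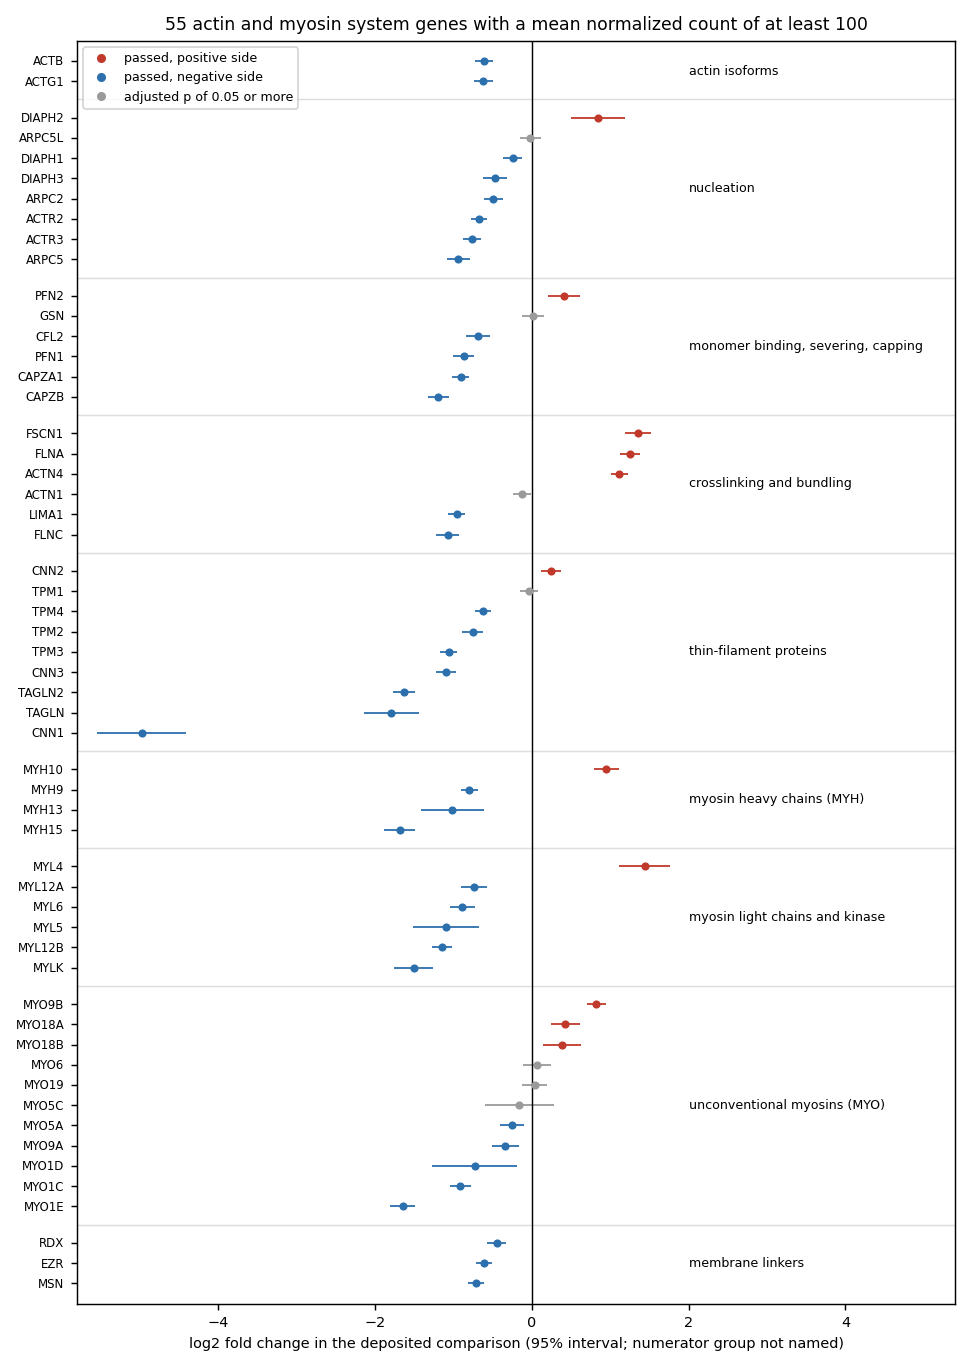
Log2 fold change with its 95% interval (horizontal axis) for 55 of the 57 members with a mean normalized count of at least 100, grouped by role, with 2 members not drawn. Of those drawn, 37 lie on the negative side, 11 on the positive side and 7 did not pass, and FLNA, ACTN4 and FSCN1 of the crosslinking group lie furthest to the positive side among members of high count.

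The cytoplasmic actins were the most abundant members per length of exon, and they changed together. ACTG1 (gamma-actin, chromosome 17, 81509971 to 81523847, GRCh38) had 51195 normalized counts per kb and ACTB (beta-actin, chromosome 7, 5527147 to 5563784) had 31481, from the means of the authors' deposited table. ACTG1 fell by 0.62 (SE 0.06, adjusted p = 2.0e-23) and ACTB by 0.61 (SE 0.06, adjusted p = 4.7e-22) on the log2 scale of the authors' deposited table. As ratios, ACTG1 was 1.54-fold and ACTB 1.53-fold lower in the numerator group. The mean counts implied for the groups were 120865 in the numerator and 185588 in the denominator group for ACTG1, and 87709 and 133852 for ACTB, computed from the authors' deposited table with equal group sizes. ACTB therefore made up 38.2% of the per-length sum of both genes in the numerator group and 38.0% in the denominator group. The muscle actin genes had low counts: skeletal ACTA1 had a mean of 46.5 and enteric ACTG2 of 5.09 in the authors' deposited table, and neither passed. ACTA2 was not analysed here.

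Nucleation genes of the Arp complex that were analysed mostly fell, and the formins split. The subunit genes ARPC1A, ARPC1B and ARPC4 were not analysed here. ACTR2 and ACTR3, the actin-related subunits that mimic a filament end, stood at -0.67 (SE 0.05, adjusted p = 7.4e-35) and at -0.76 (SE 0.06, adjusted p = 5.8e-38) by the authors' deposited table. The subunit genes ARPC2 (-0.49, SE 0.06) and ARPC5 (-0.94, SE 0.08) passed as well in the authors' deposited table. ARPC5L, the paralog that can replace ARPC5 in the complex, did not follow it: its value was -0.02 with an interval from -0.15 to 0.12 in the authors' deposited table, clear of the ARPC5 interval of -1.09 to -0.79. ARPC3 stood at -0.69 (SE 0.31, adjusted p = 0.0606) at a mean of 69.3 in the authors' deposited table. Its pseudogenes ARPC3P5 and ARPC3P2 had mean counts of 28.0 and 10.3 in the authors' deposited table, the part of read assignment was not tested, and no level of ARPC3 is read from its count. Among the diaphanous formins, which elongate straight filaments, DIAPH1 (-0.24, SE 0.06) and DIAPH3 (-0.47, SE 0.08) were negative and DIAPH2 (0.85, SE 0.18) was positive by the authors' deposited table. In all, 6 of 9 members of this group were negative and 1 was positive.

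Of 8 genes of monomer supply and filament ends, 4 were negative, 1 was positive and 3 did not pass, by the authors' deposited table. CAPZB and CAPZA1, the subunits of the capping protein that closes the growing end, stood at -1.19 (SE 0.07, adjusted p = 1.2e-64) and at -0.91 (SE 0.06, adjusted p = 2.5e-58) by the authors' deposited table. The profilin gene PFN1, which feeds monomers to growing ends, stood at -0.87 (SE 0.07), with implied means of 9101 in the numerator and 16617 in the denominator group, from the authors' deposited table. PFN2, a paralog with a level of 221 per kb of exon against 6472 for PFN1, lay on the other side at 0.41 (SE 0.10, adjusted p = 0.0002) by the authors' deposited table. The muscle-type cofilin gene CFL2 stood at -0.69 (SE 0.08), and the severing protein gelsolin, GSN, at 0.02 (SE 0.07) without passing, in the authors' deposited table. CFL1, the main non-muscle cofilin, had a mean of only 12.6 in the authors' deposited table and did not pass (-0.36, SE 0.70). Its pseudogenes CFL1P2 and CFL1P4 had mean counts of 46.6 and 24.7 in the authors' deposited table. What part read assignment plays in the low CFL1 count was not tested, and no statement on CFL1 is made from it. The villin gene VIL1 was at 6.21 in the authors' deposited table and did not pass.

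Crosslinking and bundling genes leaned the other way, and paralogs parted. Of 9 members, 5 were positive and 2 negative by the authors' deposited table. FLNA (filamin A, chromosome X, 154348524 to 154374638) rose by 1.25 (SE 0.06, adjusted p = 3.0e-85), a 2.38-fold difference, in the authors' deposited table. FLNC, the filamin known from muscle, fell by 1.07 (SE 0.08, adjusted p = 1.6e-43) by the authors' deposited table. The intervals of FLNA and FLNC do not overlap. ACTN4 (alpha-actinin 4, chromosome 19, 38647649 to 38731583) rose by 1.12 (SE 0.06, adjusted p = 2.4e-82), while ACTN1 stood at -0.13 (SE 0.06, adjusted p = 0.0613) by the authors' deposited table. With equal total counts, ACTN1 moved to -0.26 and passed (adjusted p = 2.9e-05). Fascin, FSCN1, which packs filaments of filopodia, rose by 1.35 (SE 0.08, adjusted p = 8.5e-58) by the authors' deposited table. FSCN1 and ACTB are neighbours 29039 bases apart on chromosome 7, and they lie on opposite sides. LIMA1, which crosslinks filaments and slows their disassembly, fell by 0.96 (SE 0.05) by the authors' deposited table. The muscle alpha-actinin ACTN2 was positive at 1.26 (SE 0.29) with a mean of 75.4, and ACTN3, with a mean of 3.81, did not pass, in the authors' deposited table.

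**Figure D2:**
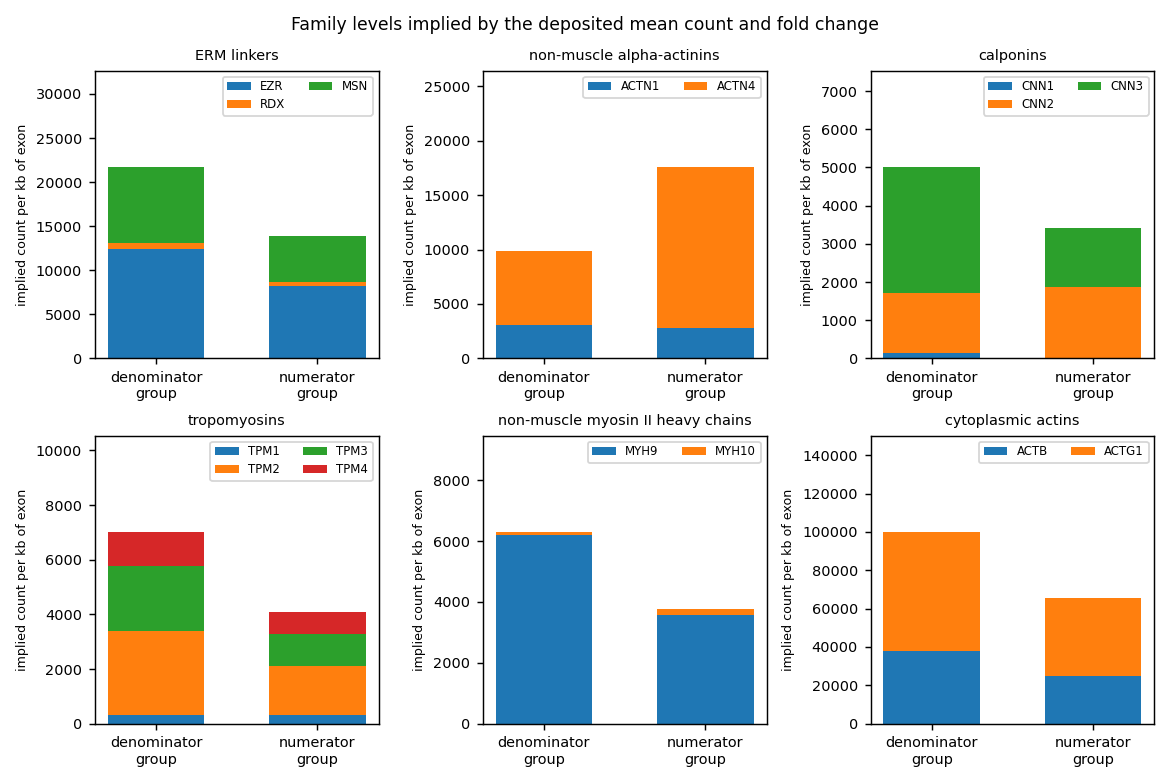
Levels per kb of exon (vertical axis, linear) implied for the denominator and numerator groups by the mean count and fold change of each gene, stacked within 6 families; there are no error bars because single libraries were not analysed. The alpha-actinins go from 9909 to 17634, and the cytoplasmic actins from 100044 to 65307 with ACTB at about the same share.

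The make-up of the families followed from these values. For the non-muscle alpha-actinins the sum was 9909 per kb in the denominator and 17634 in the numerator group, with ACTN4 at 68.9% and 84.0%. These shares are computed from the authors' deposited table and carry no replicate error.

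Thin-filament proteins held the 2 largest changes by point value among members that passed, CNN1 and TAGLN3. TAGLN3 had a mean of only 22.5, and its interval of -4.68 to -1.80 covers the MYO15B value of -2.72, so its rank is not settled. Of 11 members, 8 were negative and 1 positive (median -1.06) by the authors' deposited table. CNN1 (calponin 1, chromosome 19, 11538717 to 11550323) stood at -4.98 (SE 0.29, adjusted p = 1.8e-65) by the authors' deposited table, 31.5-fold lower in the numerator group. The implied means were 13.4 in the numerator and 422 in the denominator group, from the authors' deposited table, so in the denominator group CNN1 was a gene of moderate count and in the numerator group one of low count. CNN3, the acidic calponin, fell by 1.10 (SE 0.06, adjusted p = 2.5e-63), and CNN2 stood at 0.25 (SE 0.07, adjusted p = 0.0007), by the authors' deposited table. The CNN2 call did not hold with equal total counts, where its value was 0.12 (adjusted p = 0.155). Per kb of exon, the mean level was 1714 for CNN2 and 2427 for CNN3, computed from the authors' deposited table. CNN2 was 31.2% of the per-length calponin sum in the denominator and 54.6% in the numerator group.

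The transgelins, relatives of calponin, fell as a family. TAGLN2 stood at -1.63 (SE 0.07, adjusted p = 3.5e-112), with implied means of 5148 in the numerator and 15964 in the denominator group, from the authors' deposited table. The smooth muscle marker TAGLN stood at -1.79 (SE 0.18, adjusted p = 9.4e-23) and the neuronal TAGLN3 at -3.24 (SE 0.73, adjusted p = 3.8e-05) by the authors' deposited table, but their levels per kb of exon were 58.7 and 12.5 against 4245 for TAGLN2. The intervals of TAGLN and TAGLN2 overlap.

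Tropomyosins fell with an exception. TPM3 stood at -1.06 (SE 0.06, adjusted p = 8.4e-81), TPM2 at -0.76 (SE 0.07) and TPM4 at -0.62 (SE 0.05) by the authors' deposited table. TPM1 stood at -0.03 with an interval from -0.15 to 0.08 in the authors' deposited table, apart from the intervals of the other tropomyosins, though with equal total counts it was at -0.16 and passed (adjusted p = 0.0176). TPM1 was 4.44% of the tropomyosin sum per kb in the denominator and 7.47% in the numerator group. These shares depend on the merged exon length, 12.9 kb for TPM1 and 3.25 kb for TPM2. By implied counts, not divided by length, TPM1 held 4015 of 44770 in the denominator and 3923 of 26436 in the numerator group. Caldesmon, CALD1, which binds tropomyosin and actin, had a mean of 50.5 in the authors' deposited table and did not pass (-0.19, SE 0.41). What part read assignment plays in this low count was not tested, and no level or lack of change is read from it. Tropomyosin genes make several isoforms, which a count per gene cannot separate.

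**Figure D3:**
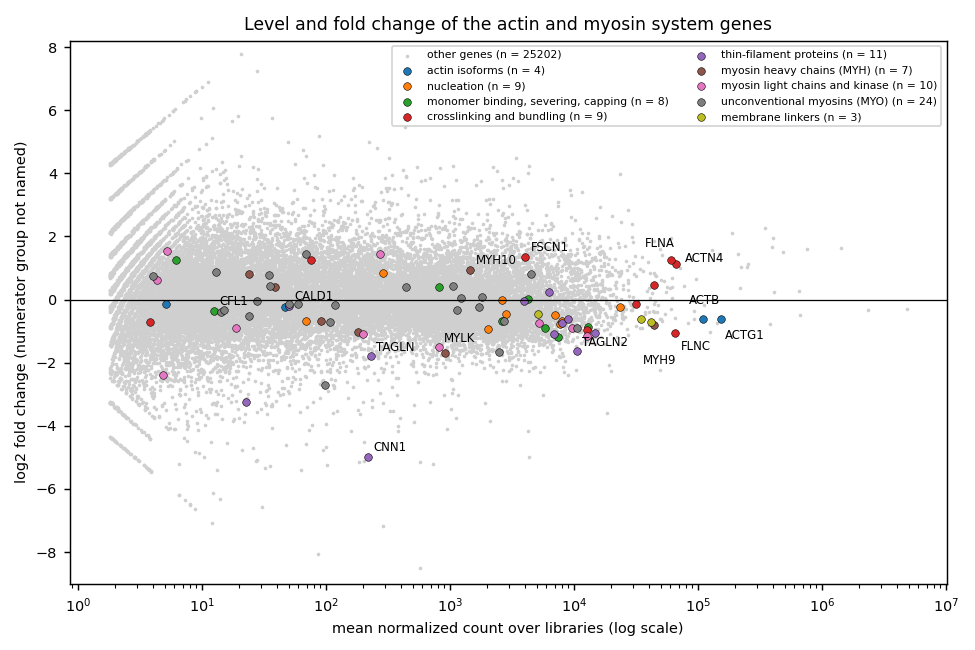
Mean normalized count (horizontal, log scale) against log2 fold change (vertical) for the 85 members, coloured by role, over 25202 other genes in grey. CNN1 is the lowest member, at a mean of 218, and FLNA and ACTN4 lie above ACTB, ACTG1, MYH9 and FLNC among members of high count.

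Non-muscle myosin II changed in its heavy chains in opposite directions. MYH9 (chromosome 22, 36281277 to 36388067), heavy chain of myosin IIA, stood at -0.79 (SE 0.05, adjusted p = 3.5e-50) with implied means of 32157 in the numerator and 55792 in the denominator group, from the authors' deposited table. MYH10, heavy chain of myosin IIB, rose by 0.95 (SE 0.08, adjusted p = 2.9e-31) by the authors' deposited table, from an implied 995 to 1923. MYH9 remained the dominant form at 98.2% of their per-length sum in the denominator and 94.4% in the numerator group. MYH14, the third non-muscle heavy chain, had a mean of 38.8 and did not pass (0.38, SE 0.45) by the authors' deposited table. Several heavy chains known from muscle were listed: MYH15 (-1.68, SE 0.10), MYH13 of extraocular muscle (-1.01, SE 0.21) and the embryonic MYH3 (-0.67, SE 0.29, adjusted p = 0.0480) were negative by the authors' deposited table, at means of 915, 181 and 91.1. The MYH3 call was lost with fold changes shifted to the median of genes whose mean reaches 100. The smooth muscle MYH11 had a mean of 23.7 and stood at 0.82 (SE 0.49, adjusted p = 0.187) by the authors' deposited table.

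The light chains of myosin II fell with MYH9. The regulatory light chain genes MYL12A and MYL12B, neighbours 5.24 kb apart on chromosome 18, stood at -0.74 (SE 0.08, adjusted p = 2.2e-17) and at -1.15 (SE 0.07, adjusted p = 1.8e-62) by the authors' deposited table. Implied means of MYL12B were 7925 in the numerator and 17528 in the denominator group, from the authors' deposited table. The essential light chain gene MYL6 stood at -0.89 (SE 0.08, adjusted p = 9.4e-27) by the authors' deposited table. MYLK (chromosome 3, 123610049 to 123884331), the kinase that phosphorylates the regulatory chain, fell by 1.51 (SE 0.13, adjusted p = 4.5e-32), or 2.84-fold, in the authors' deposited table. The count of MYLK covers all its transcripts, whatever their start, and cannot separate them. MYL5 fell by 1.09 (SE 0.21) by the authors' deposited table. The exception was MYL4, an essential light chain of atrial and fetal muscle, which rose by 1.44 (SE 0.16, adjusted p = 1.8e-17) at a mean of 273 in the authors' deposited table. The other muscle light chains MYL1, MYL2, MYL3 and MYL11 had means from 4.34 to 18.7 and did not pass in the authors' deposited table. MYL9 was not analysed here.

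Unconventional myosins, single motors that carry cargo or link membrane to actin, were mixed. Of 24 members, 7 were negative, 4 positive and 13 did not pass in the authors' deposited table, and 12 of the 24 had a mean under 100. The share that passed was 45.8%, near the 42.4% of all genes. Among those with a mean of at least 100 it was 75.0%, near the 74.1% of all such genes. MYO1E, a motor of endocytic sites, fell by 1.65 (SE 0.08, adjusted p = 1.3e-85) by the authors' deposited table, with implied means of 1202 and 3769 in the numerator and denominator groups. MYO1C (-0.91, SE 0.07, mean 10598) and MYO1D (-0.73, SE 0.28, adjusted p = 0.0225) followed in the authors' deposited table. MYO1F, known from immune cells, was positive at low count, 1.45 (SE 0.32) with a mean of 69.4 in the authors' deposited table. MYO9B, a single-headed motor, rose by 0.82 (SE 0.06, adjusted p = 1.7e-39), and its relative MYO9A fell by 0.34 (SE 0.09), by the authors' deposited table. MYO18A (0.43, SE 0.09) and MYO18B (0.38, SE 0.12, adjusted p = 0.0047) were positive by the authors' deposited table, and the MYO18B call was lost at equal total counts (adjusted p = 0.0807). The cargo motor MYO5A fell by 0.25 (SE 0.08), while MYO6, which walks to the opposite filament end (0.07, SE 0.09), and the mitochondrial MYO19 (0.03, SE 0.08) did not pass, in the authors' deposited table. MYO15B had a large value, -2.72 (SE 0.29), at a mean of 98.4 in the authors' deposited table. MYO10, a filopodial motor, had a mean of 34.7 and stood at 0.76 (SE 0.46) without passing in the authors' deposited table. MYO5C (mean 118) did not pass, and the remaining low-count members MYO1G, MYO1H, MYO3A, MYO3B, MYO5B, MYO7A, MYO7B, MYO15A and MYO16 had means from 4.04 to 59.0 and did not pass either, in the authors' deposited table.

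The membrane linkers changed as a family. Moesin, MSN, stood at -0.71 (SE 0.05, adjusted p = 2.5e-41), ezrin, EZR, at -0.61 (SE 0.05, adjusted p = 1.3e-31) and radixin, RDX, at -0.45 (SE 0.06, adjusted p = 1.7e-12) by the authors' deposited table. Their shares of the per-length sum hardly differed between groups, with EZR at 57.2% in the denominator and 58.6% in the numerator group.

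In terms of the whole RNA pool, the implied counts of the 85 members were 2.38% of all counts in the denominator and 1.73% in the numerator group, computed from the authors' deposited table. The cytoplasmic and muscle actins took 0.772% and 0.464%, and the crosslinking genes 0.616% and 0.697%. The implied total over all genes was itself larger in the numerator group, by 0.12 on the log2 scale. With each gene's mean count held, a shift of all fold changes by 0.13 was needed to make the totals equal.

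The other genes of the pathway, listed by function and none of them a member, were more often negative than positive in each list given. All genes whose mean reaches 100 leaned that way too, 39.9% negative and 34.1% positive. SRF stood at -1.31 (SE 0.08, adjusted p = 1.3e-61) and its coactivator MRTFA at -1.06 (SE 0.08, adjusted p = 1.8e-36), with MRTFB at 0.06 (adjusted p = 0.816), by the authors' deposited table. These SRF genes were named after their values were seen.

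Of 24 other nucleators and activators, 13 were negative (54.2%) and 1 positive (4.17%, median -0.30) by the authors' deposited table. Cortactin, CTTN (-0.999, SE 0.06), CYFIP1 (-0.96, SE 0.06) of the WAVE complex and WASL (-1.16, SE 0.08), which activates the Arp complex, fell in the authors' deposited table. The positive gene was the formin FHOD1 at 2.05 (SE 0.10, adjusted p = 1.7e-91) by the authors' deposited table. For other monomer binding, severing and capping genes the counts were 12 negative (63.2%) and 0 positive of 19 (median -0.87) by the authors' deposited table. At an unadjusted p under 0.05 the positive count of this list stayed at 0. WDR1 (-1.41, SE 0.06) and CAP1 (-1.30, SE 0.06), which help cofilin recycle filaments, the coronin CORO1C (-0.88, SE 0.06) and COTL1 (-0.97, SE 0.06) led it in the authors' deposited table.

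Other SRF target and stress fibre genes split, 8 of 20 negative (40.0%) and 5 positive (25.0%, median -0.25) by the authors' deposited table. Of these 20, 15 had a mean of at least 100, where 39.9% of all genes were negative and 34.1% positive. The negative share of this list is thus near that of such genes. ANKRD1 (-3.60, SE 0.05), a nuclear and sarcomeric protein gene, and the focal adhesion gene ZYX (-1.26, SE 0.08) fell in the authors' deposited table. Vinculin, VCL (1.96, SE 0.06), which ties actin to adhesions, and the secreted CCN1 (1.57, SE 0.06) rose in the authors' deposited table. These lists were drawn up with earlier results of these data known, and their counts are set beside the shares of all genes given above, not tested.

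**Figure D4:**
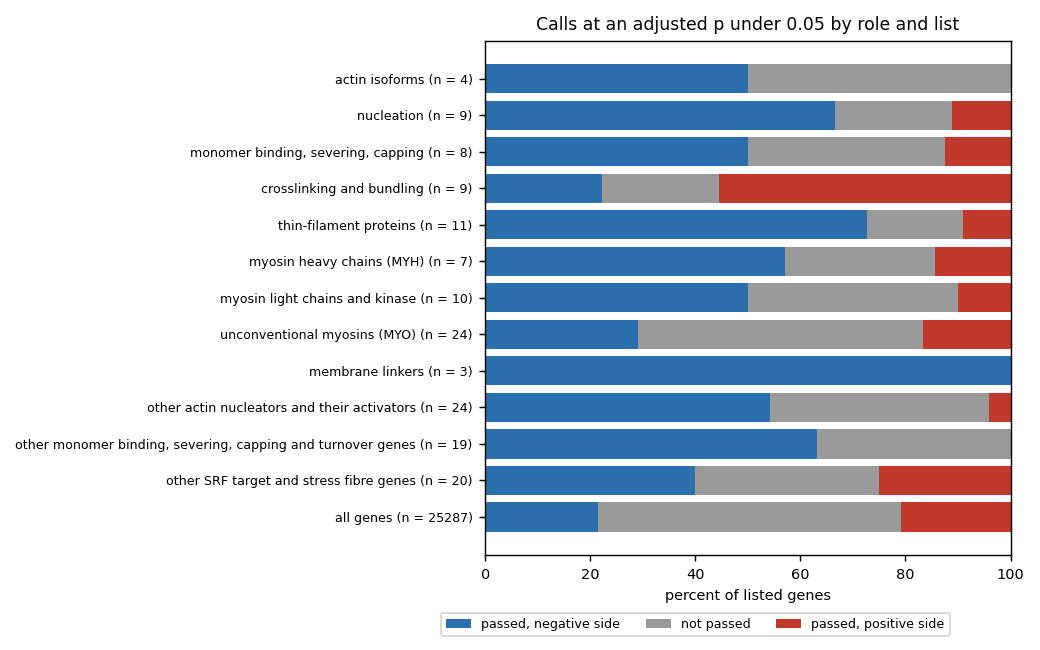
Percent of listed genes (horizontal axis) that passed on the negative side, did not pass, or passed on the positive side, for the 9 roles of the members, 3 other lists and all 25287 genes. Crosslinking and bundling is the role with more positive than negative genes, and the turnover list has no positive gene.

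Markers of other cell types were mostly of low count. Of the smooth muscle markers, TAGLN, CNN1 and DES were negative and SMTN was positive (0.98, SE 0.08) by the authors' deposited table, MYH11 and LMOD1 did not pass, and ACTA2 was not analysed here. Their summed implied counts were 2526 in the numerator and 2130 in the denominator group, most of it SMTN. The 5 fibroblast markers summed to 366 in the numerator and 232 in the denominator group, computed from the authors' deposited table, and 2 of them passed on the positive side. Of 10 skeletal and cardiac muscle markers 6 were listed, all with means under 100 in the authors' deposited table, and their sums were 237 and 244 in the numerator and denominator groups. The blood marker PTPRC was at 12.8 in the authors' deposited table, and CD3E and CD68 were not analysed here. Their part in the results was not tested.

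Near-identical copies and overlapping transcripts limit several of these counts. Of 51 pseudogene copies of members in the authors' deposited table, 16 passed, where 42.4% of all genes did. For 15 of these 16 copies the parent gene passed too, each time on the same side. ACTN4P1 stood at 1.15 (SE 0.16) beside ACTN4 at 1.12, and MSNP1 at -0.68 (SE 0.14) beside MSN at -0.71, in the authors' deposited table. Reads of such copies can come from the parent gene, so these rows are not separate evidence. The sources used here do not state whether counting used strand, so reads of a gene and its antisense partner cannot be told apart. Of 10 antisense or divergent partners of members 6 passed, where 42.4% of all genes did. In 5 pairs both genes passed, 3 on the same side and 2 on opposite sides. FLNC-AS1 stood at -4.52 (SE 0.29) with a mean of 201, beside FLNC at -1.07, and CNN3-DT at -0.39 (SE 0.11) beside CNN3, in the authors' deposited table. The opposite pairs were those of ACTR3-AS1 at 1.33 (SE 0.47) and MYLK-AS1 at 1.16 (SE 0.38).

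The order among members was set beside transcript length, base composition and level. Across the 57 members with a mean of at least 100, the log2 fold change of the authors' deposited table had a Spearman correlation of 0.24 with the length of the longest coding transcript, 0.07 with its GC content and -0.02 with the mean count. Across 10199 other coding genes these were 0.0044, 0.01 and -0.10. Genes of 1 set of libraries are not independent points, and no p is given.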

How the data were processed

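RNA of 6 NCI-H1299 libraries was measured by RNA-seq. The submitters' processing notes name fastp 0.23.2, STAR 2.7.10a, featureCounts, DESeq2 and the build hg38. Per the file headers, the authors' deposited table holds a mean normalized count over libraries (a signal scaled by the authors), a fold change and SE on the log2 scale that DESeq2 reports, a Wald score, a p-value and an adjusted p-value. It also holds the authors' own call, which was not used. The Wald score equals the fold change over its SE within 2.24e-13, and the adjusted p a Benjamini-Hochberg adjustment over 25287 genes within 1.39e-15. The planned edgeR fit on counts per library was not run, because values per library were not analysed here. No new test per gene was made for the main results. Intervals are 95%, the fold change plus or minus 1.96 SE. Group means were computed from the mean count and fold change, taking 3 libraries a group. Levels per kb use merged exons of GENCODE release 29 (GRCh38), which matched 93.6% of genes and all 85 members. Merged exons can be longer than the transcript expressed, so levels and shares per kb compared between genes depend on the annotation. The median SE was 0.45 for the 21 members with a mean of 10 to 100 and 0.06 for the 17 of highest count. Members, roles and lists were chosen with earlier results of these data known. The genes named are a fixed core set, up to 6 per role and side by size among those that passed with a mean of at least 100, every passing member at or beyond 1 on the log2 scale, and the 4 smallest adjusted p-values per other list; further members are named to account for the set. Some items are not reported here. The recomputed Wald tests were tested on simulated data. That simulation drew its noise from the deposited SEs, so it checks the computation and cannot show whether those SEs hold for these libraries. Python 3.11.15, pandas 2.3.3 and scipy 1.17.1 were used.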

Additional observations from a re-analysis of the deposited data

How the results depend on the processing

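Requiring a change of 1 or more on the log2 scale, in either direction, left 15 negative and 6 positive members, against 7.06% and 10.9% of all genes. A Wald test of an absolute change above 0.5 left 26 negative and 8 positive, against 8.37% and 9.73%; there 20 of 58 named members, ACTB, ACTG1 and EZR among them, no longer passed. The other 6 settings gave 39 to 44 negative and 12 to 14 positive members. These settings change the calls over all genes as well, and the shares of all genes under them are not given here. The counts alone are thus no result about the members. The median log2 fold change of members was -0.62 with a mean count of at least 100 and -0.58 with equal total counts. Of the 58 named members, none that passed changed sign under these settings. TPM1, which did not pass, went from -0.03 to 0.04 with fold changes shifted to the median of genes whose mean reaches 100. GSN, MYO6, MYO19 and MRTFB, which did not pass either, lie nearer to 0 than the equal-total shift of 0.13. The equal-total shift changed 4 of the named calls: CNN2 and MYO18B were lost, and ACTN1 and TPM1 were gained on the negative side. ACTN1 also passed with an unadjusted p, and with a minimum mean count of 10 or 100, which leaves fewer genes to adjust over. An adjusted p under 0.01 lost MYH3 and MYO1D, and the shift to the median lost MYH3. No paired analysis was possible because values per library were not analysed here, and leaving out a replicate was not run for the same reason. Depth limits the 28 members with a mean under 100, of which 5 passed (17.9%). Calls were rarer at low counts over all genes too: 42.4% passed at any count and 74.1% at a mean of at least 100.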
